A study of Mus musculus with 42 samples.

Results

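Amino acid transporters were followed as 1 gene group in mouse preimplantation embryos. The group held the genes whose annotated symbol was the name of a solute carrier family (Slc1, Slc3, Slc6, Slc7, Slc36, Slc38 or Slc43) followed by the letter a and a number alone, and each gene was represented by the probe set with the highest mean log2 intensity over all arrays. It comprised 58 of the 18193 named genes on the array. The symbols and not the measured values chose the members. Because the choice was made by symbol, the group also took in carriers of related small molecules, among them those for taurine (Slc6a6), creatine (Slc6a8), noradrenaline (Slc6a2), dopamine (Slc6a3) and serotonin (Slc6a4), and Slc43a3, a nucleobase carrier. Symbols with a further letter, such as Slc6a20a and Slc6a20b, were outside it.

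Fertilized 1-cell B6D2F1 embryos received morpholinos against Oct4 (gene symbol Pou5f1), Sall4 or Nanog, or a control morpholino without a match in mouse transcripts. Morpholinos are synthetic antisense molecules that keep an RNA from being translated or spliced. They were cultured in Human Tubal Fluid with a serum supplement, and their RNA, taken at 20 h or 44 h, was amplified and hybridised to 42 arrays in 14 groups of 3. At 20 h, Oct4 and Sall4 morpholino embryos each had uninjected embryos of their own as the control and no control morpholino group; the Nanog experiment had uninjected, control morpholino and Nanog morpholino embryos. At 44 h, 1 experiment held uninjected, control, Oct4 and Sall4 morpholino embryos and another held uninjected, control and Nanog morpholino embryos. The replicates are labelled as biological; how many embryos each held was not given in the sources used here.

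Amino acid carriers work as families that share a mechanism. Slc1 carriers move acidic and neutral amino acids and Slc6 carriers move glycine, proline, taurine and related molecules, both driven by sodium. Several Slc7 proteins are light chains that reach the cell surface only when bound to an Slc3 heavy chain, and they exchange amino acids across the membrane, whereas the cationic Slc7 carriers work alone. Early mouse embryos take up glycine to regulate their volume, and later stages use leucine and other amino acids whose supply is read at the lysosome by the kinase complex mTORC1.

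The median intensity of an array lay between 193 and 227 in the 18 arrays of the Nanog experiment and between 26.1 and 33.3 in the other 24, so levels were compared only within an experiment. Levels of different genes were not compared either, because a probe set's brightness depends on its sequence. At 44 h Pou5f1 RNA was lower with the Oct4 morpholino than in control embryos (means of 2218 and 3925), and it was also lower with the Sall4 morpholino (2203) and with the Nanog morpholino (4034, against 6495 in its own controls). Sall4 RNA averaged 3662 with its morpholino and 3169 in controls, and Nanog RNA 2687 with its morpholino and 3828 in controls. With the Oct4 morpholino Sall4 RNA was lower than in controls at 44 h (log2 difference -0.99, limma adjusted p = 0.000725). At 20 h it was lower than in uninjected embryos (-0.76, limma adjusted p = 0.03). A morpholino need not lower its target's RNA, so these levels do not check the knockdown of the protein. The 7 embryo markers on the array were Pou5f1, Sall4, Nanog, Dppa3, Tdgf1, Cdx2 and Zp3, so the knockdown targets are among them. All were above the array median in every 44 h group and 4 to 7 in the 20 h groups. Of 10 cumulus and granulosa cell markers, 2 to 4 were above it in any group, and of 10 blood and stromal markers 1 to 3 were. In bulk samples fewer cells of a type and less RNA per cell cannot be told apart.

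Differences between groups were tested for each gene with limma on log2(intensity + 16) in 1 model of all 42 arrays, and p-values were adjusted by the Benjamini-Hochberg method over the 15478 genes whose mean exceeded an intensity of 71.2 in at least 1 group. A gene was called at an adjusted p under 0.05. The log2 differences below are on this scale, which understates changes of dim genes. Of the 58 transporters 45 were tested. The 13 that stayed below the limit in every group were Slc1a6, Slc1a7, Slc6a3, Slc6a13, Slc6a16, Slc6a18, Slc6a19, Slc7a8, Slc7a10, Slc7a15, Slc36a2, Slc36a4 and Slc38a5. Among them Slc7a8, a light chain for large neutral amino acids, had group means of 1.3 to 1.9 in uninjected embryos of the Nanog experiment, at the bottom of the intensity scale.

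Because the filter passes a gene on its brightest group, it was also asked how many transporters lay above their arrays' own median in each group. Between 22 and 30 of the 58 did, or 37.9% to 51.7%, beside 58.2% to 62.2% of all genes. In uninjected embryos of the Nanog experiment, 29 lay above it at 20 h and 30 at 44 h.

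The largest number of transporter calls came from development itself. In uninjected embryos of the Nanog experiment 7 transporters rose and 5 fell between 20 h and 44 h, 26.7% of those tested, beside 25.6% of all genes (9.28% higher and 16.3% lower). The shares were close, and the median difference of the 45 transporters was 0.41 and that of all genes 0.02. Sodium-driven carriers of creatine and taurine rose, and with them 2 light chains, 1 Slc38 carrier, the noradrenaline carrier and the nucleobase carrier. Carriers of neutral amino acids, of proline and of cystine were among those that fell. Between the same groups the summed intensity of the embryo markers lay at 26758 to 27573 at 20 h and at 36223 to 40618 at 44 h, and that of the blood and stromal markers at 1511 to 2155 and at 2734 to 3372, both higher at 44 h without overlap. Cumulus and granulosa markers lay at 2635 to 5857 and at 2227 to 4570. Of the embryo markers, Nanog and Tdgf1 differed by 3.63 and 4.15 and Zp3 by -1.53, so their sum does not measure cell makeup alone. The part of cell makeup in the transporter values over time was not tested.

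Slc6a8, the creatine carrier, had intensities of 157, 368 and 472 at 20 h and of 5162, 7167 and 5431 at 44 h. Each 44 h array was above every 20 h array, and the difference was 4.20 (SE 0.42, limma adjusted p = 7.39e-09), an 18.4-fold change and the largest rise in the group. Control-injected embryos lay at 397 to 530 at 20 h and at 5702 to 6674 at 44 h. In the uninjected embryos hybridised with the other experiments, Slc6a8 averaged 30.2 and 19.2 in the Oct4 and Sall4 sets at 20 h and 2223 at 44 h; those sets were not tested against each other.

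Slc7a6, a light chain that exchanges cationic for neutral amino acids, read 1417, 348 and 147 at 20 h and 3457, 4577 and 1959 at 44 h. The 3 young samples spread widely but stayed below the older ones, with a difference of 2.84 (SE 0.65, limma adjusted p = 0.00119). Its close relative Slc7a7, which does the same exchange, read 30.7, 66.5 and 82.8 at 20 h and 871, 387 and 56.1 at 44 h. Here 1 of the 44 h arrays lay within the 20 h range. The difference of 2.03 was called (limma adjusted p = 0.00651), and it was not without uninjected 44 h replicate 1 (1.23, adjusted p = 0.109) or in a fit of the Nanog experiment alone (adjusted p = 0.061).

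Slc43a3 rose from 787, 791 and 248 to 3010, 3310 and 2199 (2.34, SE 0.45, limma adjusted p = 0.00016). In control-injected embryos it was already at 1317 to 2197 at 20 h and stood at 1772 to 2366 at 44 h, so the difference over time in those embryos was 0.28 (adjusted p = 0.734). The difference between the change over time in control-injected and in uninjected embryos was -2.06 for Slc43a3 and did not pass limma's test (adjusted p = 0.5). No transporter passed that test, beside 0.0129% of all genes, and 5 had an unadjusted p under 0.05. The share of all genes with such an unadjusted p was not counted for that test.

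Slc6a6, the taurine carrier, read 3488, 3338 and 2600 at 20 h and 7836, 6859 and 7173 at 44 h. The samples at the 2 times did not overlap, and the difference was 1.22 (SE 0.40, limma adjusted p = 0.023). It was not called without any 1 of 3 uninjected arrays (20 h replicate 3, 44 h replicate 1 or 44 h replicate 3, adjusted p of 0.0515 to 0.0882) or in control-injected embryos (0.59, adjusted p = 0.331). The other 3 probe sets of Slc6a6 rose by 1.30 to 2.01 and each passed the test.

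Slc38a10, a member of the sodium-coupled neutral amino acid carrier family, read 2265, 1118 and 695 at 20 h and 2800, 4239 and 3933 at 44 h (1.56, limma adjusted p = 0.0117). The call was lost without uninjected 20 h replicate 3 (adjusted p = 0.1) with the mean of all probe sets (0.54, adjusted p = 0.0654) and in control-injected embryos (0.41, adjusted p = 0.605). Its 6 other probe sets gave differences from -0.58 to 1.00. Slc6a2 rose by 0.72 (limma adjusted p = 0.0217), from 153, 293 and 310 to 355, 469 and 407. It was not called without uninjected 20 h replicate 1 (0.42, adjusted p = 0.243), 44 h replicate 2 (adjusted p = 0.0975) or 44 h replicate 3 (adjusted p = 0.0511), with a pseudocount of 1, with quantile normalization, with the mean of all probe sets or in the Nanog experiment alone (adjusted p of 0.0529 to 0.0863), and in control-injected embryos the difference was -0.049.

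**Figure D1:**
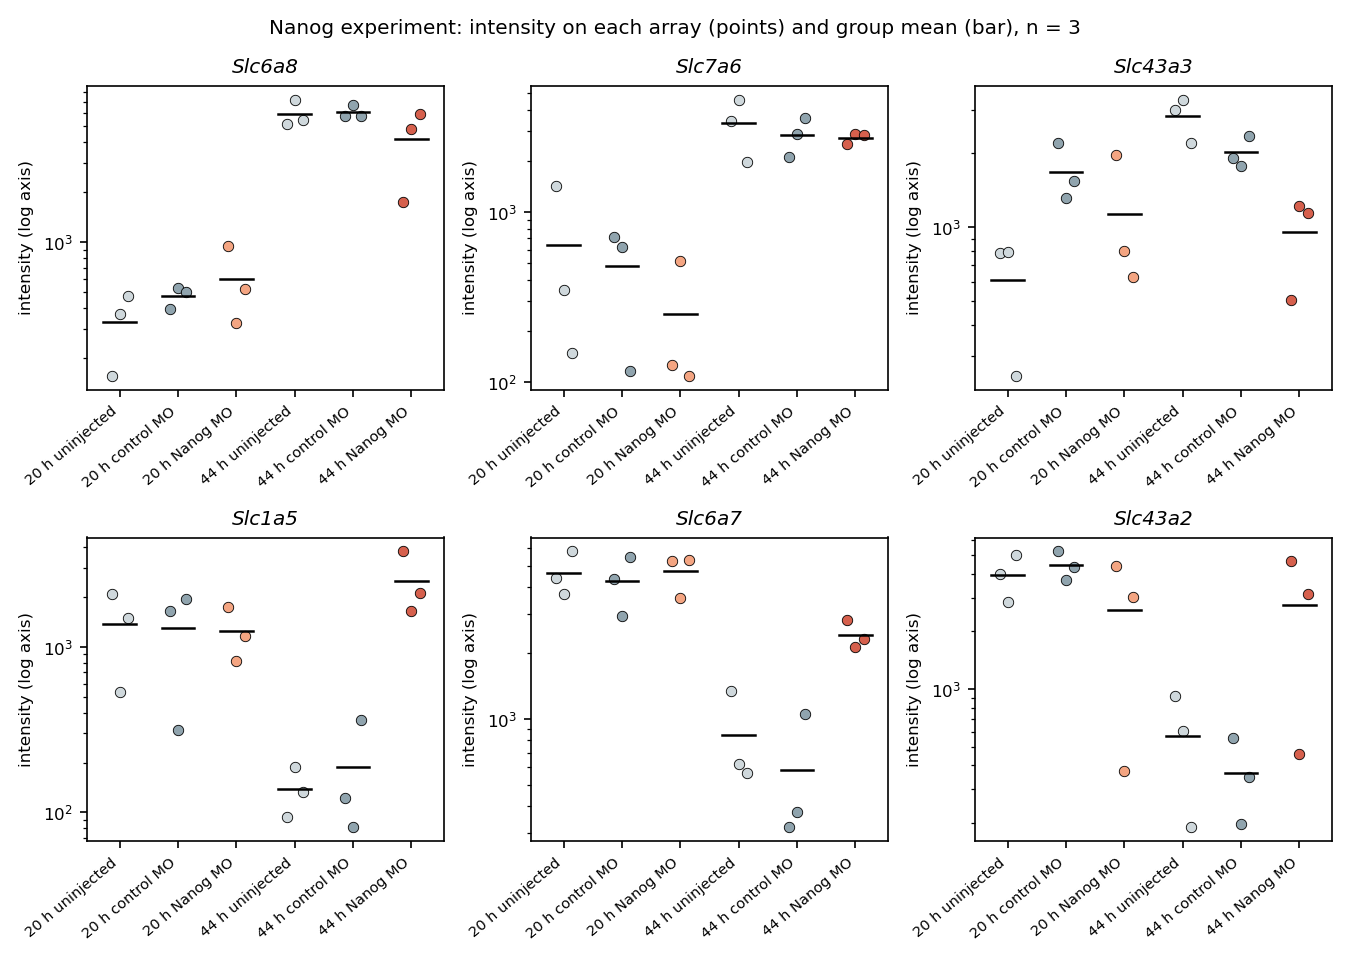
Intensity (log axis) of 6 transporters on each of the 18 arrays of the Nanog experiment, by time and treatment; points are arrays, bars are group means and MO stands for morpholino. Slc6a8 and Slc7a6 were higher in uninjected embryos at 44 h than at 20 h, and Slc1a5 and Slc6a7 were lower at 44 h except in Nanog morpholino embryos, whose 3 arrays lay above all 3 control arrays.

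Among the carriers that fell, Slc1a5, which exchanges glutamine and other small neutral amino acids, read 2096, 535 and 1494 at 20 h and 94.3, 188 and 134 at 44 h. No older sample reached the lowest younger one, and the difference was -3.01 (SE 0.75, limma adjusted p = 0.00267), 8.05-fold. Its second probe set differed by -2.85 (adjusted p = 0.00719). Slc43a2, a carrier of large neutral amino acids, fell from 3987, 2830 and 4985 to 920, 602 and 190 (-2.97, SE 0.74, limma adjusted p = 0.00269). The other 2 probe sets of Slc43a2 differed by -0.75 and -1.39 and did not pass, and with the mean of all 3 the difference was -1.70 (adjusted p = 0.00817).

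Slc6a7, the proline carrier, read 4414, 3709 and 5824 at 20 h and 1340, 625 and 564 at 44 h, a clear separation (-2.53, SE 0.54, limma adjusted p = 0.000683). Slc6a15, a carrier of branched-chain amino acids and proline, fell from 2623, 1535 and 2578 to 992, 518 and 55.3 (-2.70, limma adjusted p = 0.017). The fall of Slc6a15 leaned on its dimmest array: without uninjected 44 h replicate 3 it was -1.58 (adjusted p = 0.201). It was also not called without 20 h replicate 1 or 20 h replicate 3 (adjusted p of 0.0549 and 0.0547), in the Nanog experiment alone (adjusted p = 0.0742) or in control-injected embryos (-1.13, adjusted p = 0.389).

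Slc7a11, the light chain of the cystine and glutamate exchanger, read 1790, 1333 and 132 at 20 h and 47.3, 41.6 and 384 at 44 h. The highest 44 h array lay above the lowest 20 h array, and the difference was -2.65 (SE 0.79, limma adjusted p = 0.0117). Without any 1 of uninjected 20 h replicates 1 and 2 and 44 h replicates 1 and 2 it was not called (adjusted p of 0.0674 to 0.102), nor in the Nanog experiment alone (adjusted p = 0.0569). Its second probe set differed by -2.73 (adjusted p = 0.0121).

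Slc7a11 and Slc7a7 moved in opposite directions over time. Upstream sequence of both carries the letters TGATGNAA, the composite element that C/EBP and ATF proteins, among them the amino acid response factor Atf4, are known to bind. In the RefSeq promoter windows (build GRCm38.p6, 250 bases before and 50 after a start), 41 of the 58 transporters had an entry. TGATGNAA or its reverse complement TTNCATCA was found in 4 of these genes, namely Slc1a4, Slc6a21, Slc7a7 and Slc7a11, or 5 of their 62 windows, and in 3.97% of all 32851 windows. The octamer ATGCAAAT (reverse complement ATTTGCAT), the kind of site that POU factors such as Oct4 are known to bind, was found in Slc6a12 and Slc7a11, or 2 of the 62 windows, and in 1.74% of all windows. The stretches below show the matches in capitals, 5′ to 3′ on the strand of the gene, which is the minus strand in each case; the first lies at chr3:50443614-50443813, the second at chr14:54417873-54417952 and the last at chr11:20332699-20332773.
Slc7a11: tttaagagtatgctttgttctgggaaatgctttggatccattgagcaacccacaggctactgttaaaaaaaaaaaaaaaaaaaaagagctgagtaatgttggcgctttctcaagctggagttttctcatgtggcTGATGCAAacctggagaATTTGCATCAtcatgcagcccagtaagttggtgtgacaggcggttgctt
Slc7a7: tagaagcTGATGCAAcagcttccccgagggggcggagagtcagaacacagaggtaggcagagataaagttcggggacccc
Slc1a4: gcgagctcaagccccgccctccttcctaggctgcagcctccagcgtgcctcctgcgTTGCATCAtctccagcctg
The Slc7a11 stretch covers bases -200 to -1 from the start. Its TGATGCAA begins at -66, and its capitals ATTTGCATCA hold an octamer match from -49 that overlaps a TTGCATCA match from -47. In the Slc7a7 stretch the match begins at -243 from 1 annotated start; counted from a second start of Slc7a7 the same match begins at -1 and crosses it, and that window also holds TGATGAAA at -141. In Slc1a4 it begins at -4 and crosses the start. A match is a run of letters and not evidence of binding, and it was not tested against the changes in RNA.

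Slc1a4, which carries alanine, serine and cysteine, averaged 1458 at 20 h and 689 at 44 h and was not called (-1.05, limma adjusted p = 0.16). Slc7a1, the main cationic carrier, averaged 2657 and 904 (-1.42, adjusted p = 0.0601), and Slc6a9, the glycine carrier, 1958 and 1048 (-0.82, adjusted p = 0.0625). Neither passed in limma's test. The heavy chain Slc3a2 and the leucine-exchanging light chain Slc7a5 differed by -0.58 and -0.43 (adjusted p of 0.303 and 0.592). Slc38a1 and Slc38a2, glutamine carriers of the plasma membrane, differed by 0.50 and 0.17, and Slc38a9, the lysosomal arginine sensor, by 0.46. Of the other members named here without a call, Slc7a3 differed by 0.21, Slc6a14 by 0.31, Slc43a1 by 0.80 and Slc36a1 by -0.94. Slc1a1 was not called either, although it read 5238, 5343 and 4926 at 20 h and 7865, 7796 and 7600 at 44 h, without overlap. It differed by 0.58, and by 1.18 and 2.97 on its other probe sets.

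**Figure D2:**
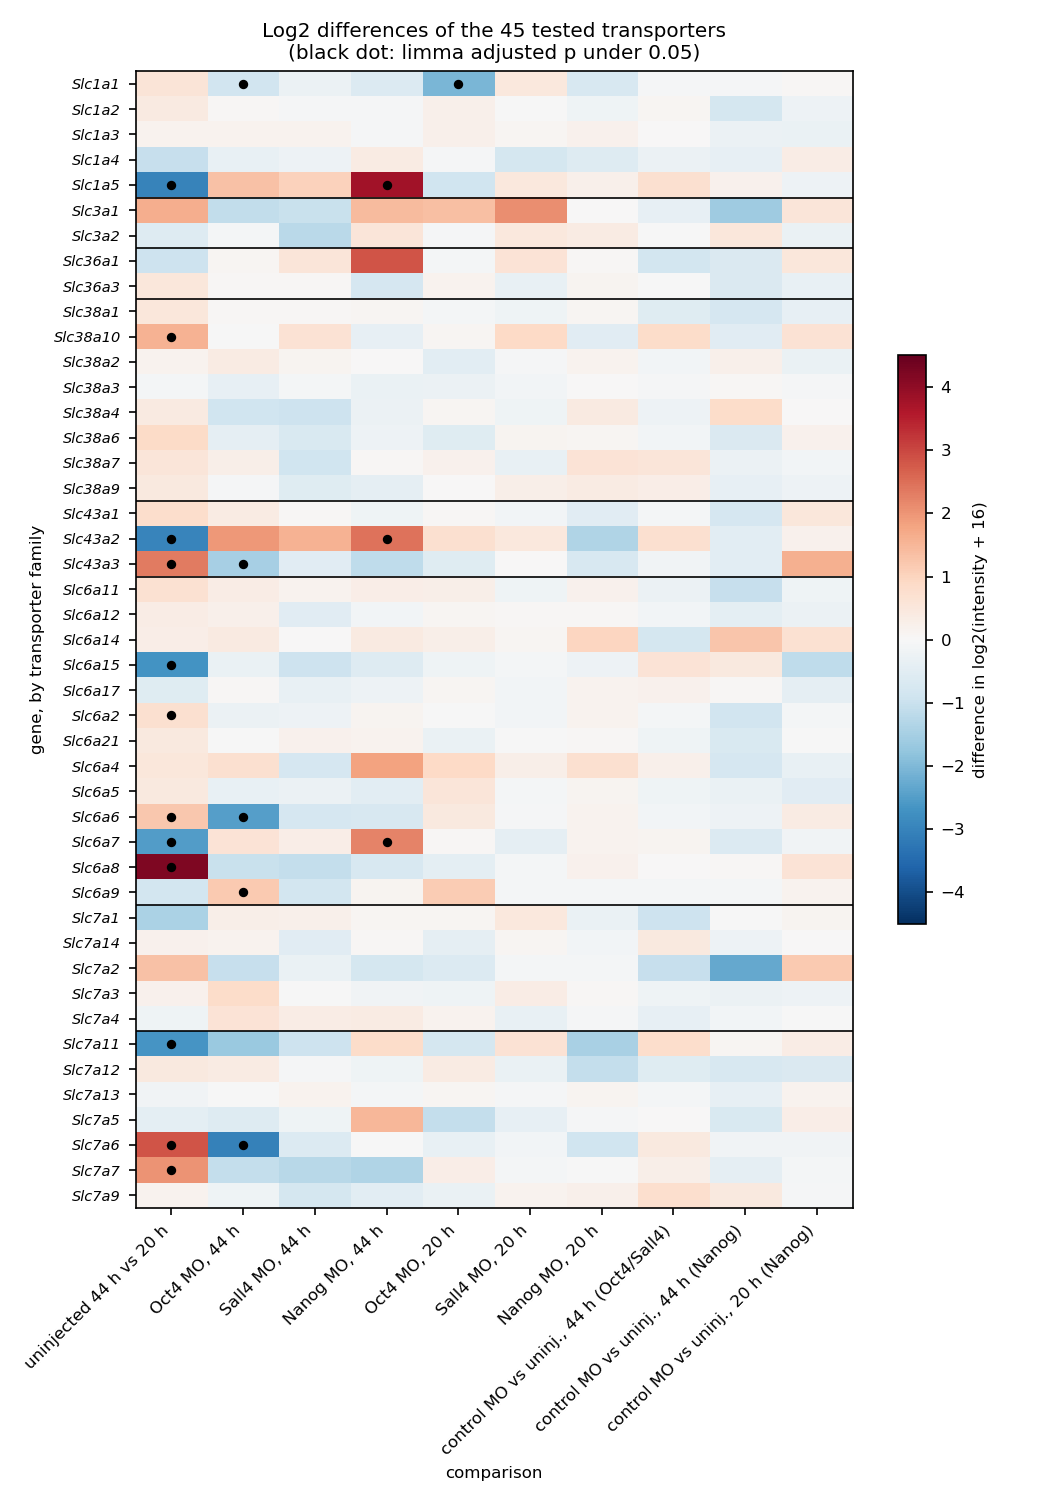
Differences in log2(intensity + 16) of the 45 tested transporters (rows, grouped by family) in 10 comparisons (columns; Oct4 against Sall4 morpholino embryos is left out); red is higher and blue lower in the first-named group, and a black dot marks a limma adjusted p under 0.05. The column for time holds 12 dots, that for the Oct4 morpholino at 44 h 5, that for the Nanog morpholino at 44 h 3 and that for the Oct4 morpholino at 20 h 1.

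With the Oct4 morpholino at 44 h, 4 transporters fell and 1 rose against control morpholino embryos. That is 11.1% of those tested, beside 11.6% of all genes (5.38% higher and 6.18% lower), and the median differences were -0.01 and 0.02. The carriers of taurine, of glutamate and of nucleobases and the light chain Slc7a6 were lower, and the glycine carrier was higher. The share is close to that of all genes. The count was 3 without control replicate 1 or control replicate 2 and 2 without Oct4 replicate 3.

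Slc6a6 read 2847, 3050 and 2901 in control embryos and 900, 155 and 908 with the Oct4 morpholino. Controls were tightly grouped, all knockdown arrays lay below them and 1 lay far below the other two; the difference was -2.49 (SE 0.40, limma adjusted p = 6.96e-05), 5.61-fold. Uninjected embryos read 3710, 3358 and 2525. Sall4 morpholino embryos, at 2011, 1161 and 2257, lay between the control and Oct4 arrays (-0.75 against control, adjusted p = 0.372). All 3 other probe sets of Slc6a6 passed as well, with differences of -1.79, -3.49 and -3.61.

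Slc7a6 read 447, 438 and 492 in controls and 25.2, 113 and 19.6 with the Oct4 morpholino. The groups were well apart on this probe set (-3.05, SE 0.65, limma adjusted p = 0.00175), and uninjected embryos lay at 295 to 396. The second probe set of Slc7a6 gave no such difference (0.15, adjusted p = 0.93), although it rose over time by 3.90 (adjusted p = 7.01e-07). The fall was thus measured by 1 of the 2 probe sets, and with their mean the difference was -1.45 (adjusted p = 0.0307).

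Slc43a3 read 774, 517 and 412 in controls and 208, 255 and 113 with the Oct4 morpholino (-1.51, SE 0.45, limma adjusted p = 0.0232), without overlap. The call was lost without control replicate 1 (adjusted p = 0.116), control replicate 2 (adjusted p = 0.0571) or Oct4 replicate 3 (adjusted p = 0.132). Slc1a1, which carries glutamate and aspartate, read 2379, 1888 and 1903 in controls and 1184, 1034 and 1168 in knockdown embryos (-0.85, SE 0.26, limma adjusted p = 0.0302). The arrays did not overlap, but the call was lost without any 1 of the 6 (adjusted p of 0.0541 to 0.121) and with quantile normalization (-0.61, adjusted p = 0.124). The other 2 probe sets of Slc1a1 differed by -1.30 and -2.27 (adjusted p of 0.0117 and 0.0326).

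Slc6a9 was the transporter that rose. It read 262, 353 and 166 in controls and 482, 607 and 701 with the Oct4 morpholino (1.19, SE 0.33, limma adjusted p = 0.0138), each knockdown array above each control. Without control replicate 3 the difference was 0.92 (adjusted p = 0.109), without Oct4 replicate 3 it was 1.07 (adjusted p = 0.0622), and in a fit of that experiment alone the adjusted p was 0.105. The second probe set of Slc6a9 differed by 1.36 (adjusted p = 0.085).

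Several members stood apart from controls without passing. Slc43a2 averaged 724 with the Oct4 morpholino and 212 in controls (1.95, limma adjusted p = 0.085), and Slc6a8 averaged 1191 and 2249 (-1.02, adjusted p = 0.122). Slc7a11 averaged 2.91 and 49.1 (-1.67, adjusted p = 0.184), which places it at the bottom of the scale in knockdown embryos. Slc7a5 differed by -0.60, Slc3a2 by -0.09, Slc7a1 by 0.25, Slc7a3 by 0.82, Slc1a4 by -0.35, Slc38a1 by 0.07, Slc38a2 by 0.36, Slc38a9 by -0.05, Slc6a14 by 0.39, Slc36a1 by 0.08 and Slc43a1 by 0.35, with adjusted p of 0.0977 or more. Slc1a5 was not called either and differed by 1.33, and by 2.19 on its second probe set.

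Beside these, the summed intensity of the 10 cumulus and granulosa markers ran from 878 to 1507 in control embryos and from 1222 to 1692 with the Oct4 morpholino, and that of the 7 embryo markers on the array from 17796 to 20353 and from 14273 to 15870. The embryo markers include Pou5f1 and Sall4, which were themselves lower with the Oct4 morpholino, so their sum does not measure cell makeup alone. The part of cell makeup in the transporter differences was not tested.

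**Figure D3:**
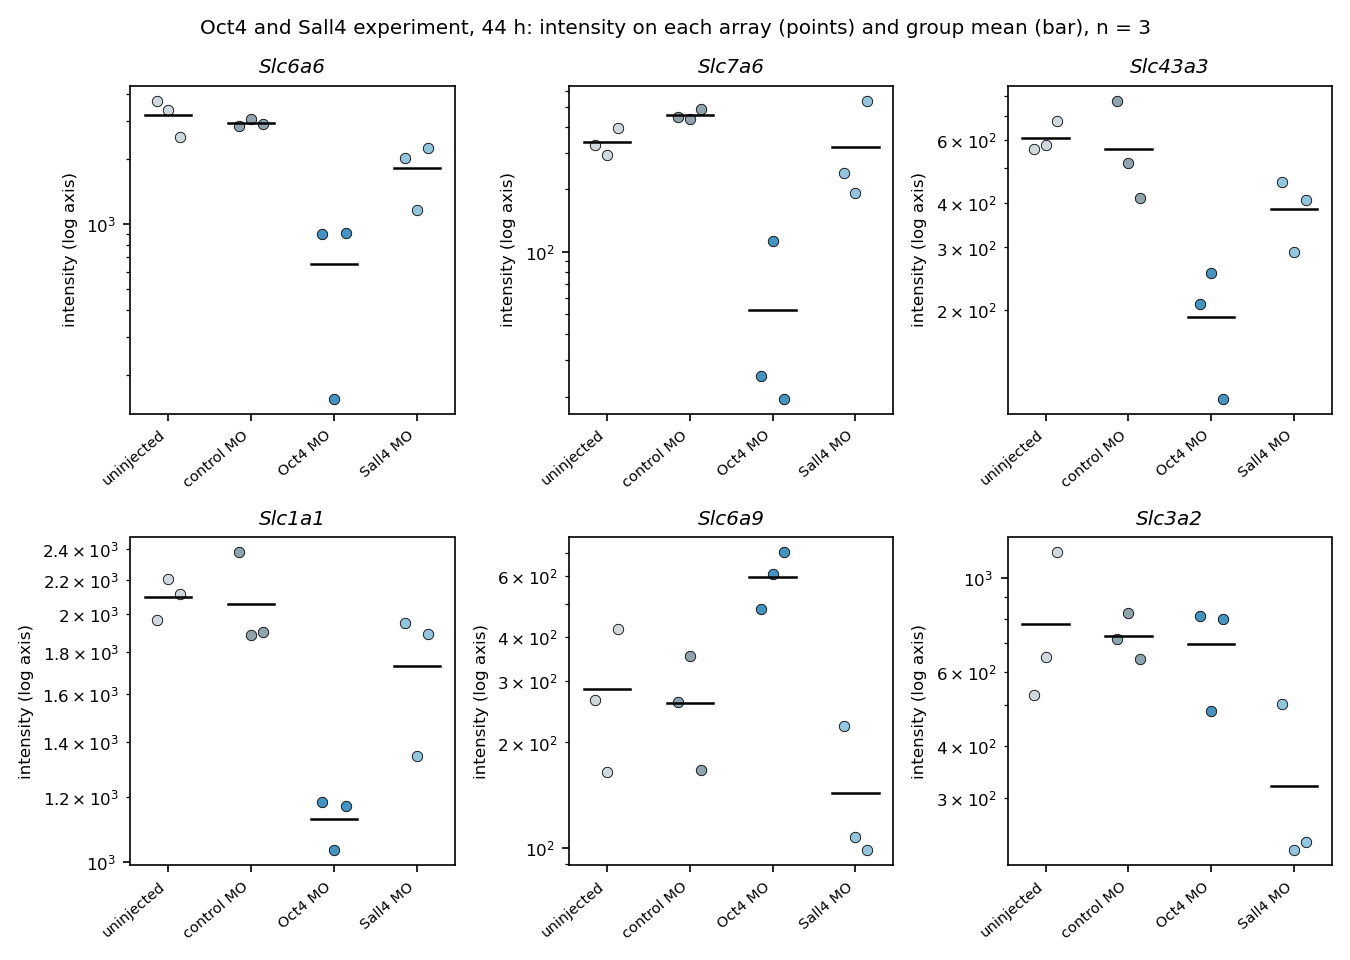
Intensity (log axis) of 6 transporters on the 12 arrays of the Oct4 and Sall4 experiment at 44 h, by treatment; points are arrays, bars are group means of 3 and MO stands for morpholino. Slc6a6, Slc7a6, Slc43a3 and Slc1a1 were lower and Slc6a9 higher on all 3 Oct4 morpholino arrays than on the control arrays, and all 3 Sall4 morpholino arrays lay below the control arrays for Slc3a2.

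With the Sall4 morpholino at 44 h no transporter passed limma's test, beside 3.97% of all genes; 6 of the 45 transporters had an unadjusted p under 0.05, beside 16.5% of all genes. The median difference was -0.24 for the transporters and -0.02 for all genes, and 16 of the 45 were above 0. Among those above 0, Slc1a5 differed by 1.05 (limma adjusted p = 0.562), and by 2.05 on its second probe set. The nearest to the threshold was Slc3a2, the heavy chain that carries Slc7a5, Slc7a6, Slc7a7 and Slc7a11 to the surface. It read 718, 827 and 643 in controls and 502, 226 and 236 with the Sall4 morpholino, without overlap (-1.23, SE 0.38, adjusted p = 0.0646). It passed without Sall4 replicate 1 (-1.59, adjusted p = 0.0248), with uninjected embryos as the control (-1.25, adjusted p = 0.0428) and with a filter on the arrays' own medians (adjusted p = 0.0481). The others were Slc6a8 (-1.06), Slc6a9 (-0.82), Slc7a7 (-1.25), Slc7a9 (-0.79) and Slc43a2 (1.57), with adjusted p of 0.171 to 0.273. Slc1a4 differed by -0.24, and by 1.95 and -0.07 on its other probe sets. Summed cumulus and granulosa markers ran from 878 to 1507 in controls and from 1509 to 1978 with the Sall4 morpholino, higher without overlap. The sums overlapped for embryo markers (17796 to 20353 and 15450 to 19643) and for blood and stromal markers (231 to 454 and 229.6 to 504.5). The part of cell makeup in the Sall4 comparison was not tested.

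Embryos of the 2 knockdowns were also set against each other. Slc6a9 was higher with the Oct4 than with the Sall4 morpholino, and Slc6a6 and Slc7a6 were lower, so that 6.67% of the transporters differed beside 7.07% of all genes (3.71% higher and 3.36% lower). Slc6a9 showed the firmest difference: Sall4 morpholino embryos read 224, 107 and 98.3 where Oct4 morpholino embryos read 482 to 701 (2.02, SE 0.33, limma adjusted p = 0.000144), and its second probe set differed by 2.64 (adjusted p = 0.000983). Slc6a6 differed by -1.74 (adjusted p = 0.0055), and by -0.93 without Oct4 replicate 2, its dimmest array (adjusted p = 0.0742); the fit of that experiment alone gave an adjusted p of 0.126. Slc7a6 differed by -2.42 (adjusted p = 0.0174), but by 0.58 on its second probe set, and the call was lost without Oct4 replicate 1, Oct4 replicate 3 or Sall4 replicate 3 (adjusted p of 0.0726 to 0.097) and with the mean of all probe sets (-0.92, adjusted p = 0.264).

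With the Nanog morpholino at 44 h 3 transporters rose and none fell, 6.67% of those tested beside 5.01% of all genes (3.44% higher and 1.56% lower). An unadjusted p under 0.05 was found for 9, beside 17% of all genes. The 3 called carry neutral amino acids or proline, and all 3 were among the 5 that fell between 20 h and 44 h in uninjected embryos. The count was 1 without control replicate 1 or Nanog replicate 1 and 1 in a fit of the 44 h arrays of the Nanog experiment alone. The member left in each case was Slc1a5.

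Slc1a5 read 122, 81.1 and 361 in control embryos and 3775, 1638 and 2107 with the Nanog morpholino. The knockdown arrays were far above the controls (3.79, SE 0.75, limma adjusted p = 0.00215), 13.8-fold, and within or above the range of uninjected 20 h embryos of the same experiment, at 535 to 2096. Uninjected 44 h embryos read 94.3 to 188. The second probe set of Slc1a5 rose by 2.61 (adjusted p = 0.0467). At 20 h Nanog morpholino embryos read 1742, 827 and 1157 and controls 1646, 315 and 1948.

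Slc6a7 read 319, 375 and 1053 in controls and 2816, 2126 and 2310 with the Nanog morpholino (2.22, SE 0.54, limma adjusted p = 0.0133), without overlap. It missed the threshold when control replicate 1, control replicate 2 or Nanog replicate 1 was left out (adjusted p of 0.0627 to 0.0768), against uninjected embryos (1.60, adjusted p = 0.0626) and in the Nanog experiment alone (adjusted p = 0.101). Slc43a2 read 553, 198 and 347 in controls and 4652, 457 and 3125 with the Nanog morpholino, so 1 knockdown array lay among the controls (2.43, SE 0.74, limma adjusted p = 0.049). It passed without Nanog replicate 2 and missed the threshold without each of the other 5 arrays in turn (adjusted p of 0.0525 to 0.291) and with median centring, a pseudocount of 1, no filter or uninjected embryos as the control (adjusted p of 0.0542 to 0.0963); in the Nanog experiment alone the adjusted p was 0.264. The other 2 probe sets of Slc43a2 differed by 0.77 and 1.56 and did not pass.

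Slc7a5 averaged 2697 with the Nanog morpholino and 970 in controls (1.49, limma adjusted p = 0.0837), without overlap. Slc36a1, a proton-driven carrier of small neutral amino acids found on lysosomes, read 43.8, 50.9 and 56.7 in controls and 649, 2194 and 55.5 in knockdown embryos, 1 array of which lay in the control range (2.83, adjusted p = 0.0576). Slc3a2 differed by 0.56 and Slc7a11 by 0.84. Slc1a1, at 4924 against 7451, differed by -0.63 (adjusted p = 0.188), and by -1.43 and -2.42 on its other probe sets. Slc43a3 differed by -1.16 (adjusted p = 0.145). Slc1a4 differed by 0.38, Slc7a1 by 0.10, Slc7a3 by -0.16, Slc38a1 by 0.09, Slc38a2 by 0.03, Slc38a9 by -0.39, Slc6a14 by 0.41 and Slc43a1 by -0.18, none past the test. On its other probe sets Slc1a4 differed by 1.51 and 1.01. Summed cumulus and granulosa markers ran from 2325 to 4495 in controls and from 3205 to 4091 with the Nanog morpholino. Those of the 7 embryo markers ran from 34898 to 37373 and from 28413 to 32810, lower without overlap, and those of the 10 blood and stromal markers from 2905 to 4046 and from 1568 to 5396. The embryo markers include Pou5f1 and Nanog, which themselves averaged lower with the Nanog morpholino, so their sum does not measure cell makeup alone. The part of cell makeup in these values was not tested.

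At 20 h the single call among transporters was a fall of Slc1a1 with the Oct4 morpholino against uninjected embryos, 2.22% of those tested beside 2.02% of all genes (0.174% higher and 1.84% lower). Slc1a1 read 569, 423 and 592 in uninjected embryos and 123, 77.4 and 149 after injection. The arrays were far apart (-2.06, SE 0.26, limma adjusted p = 1.31e-05), 4.18-fold, and the call was kept without each of the 6 arrays. It was lost in a fit of that experiment alone (adjusted p = 0.0681) and with the mean of all 3 probe sets (-1.10, adjusted p = 0.0935), whose other members differed by -0.18 and -1.05. This comparison had uninjected embryos as its control, so the morpholino and the injection cannot be told apart in it. In the Nanog experiment, control-injected and uninjected embryos at 20 h differed in Slc1a1 by 0.06, and by 0.60 and 0.96 on its other probe sets. The part of injection in the Oct4 comparison was not tested.

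The glycine carrier Slc6a9 read 538, 863 and 441 in uninjected embryos and 1351, 1276 and 1362 with the Oct4 morpholino at 20 h, all above. The difference of 1.15 just missed the threshold (limma adjusted p = 0.0574), and passed with a pseudocount of 64 (1.09, adjusted p = 0.0394). Without uninjected replicate 2 the count of calls in this comparison was 2, and it was 2 as well with a filter on the arrays' own medians. Slc7a5 averaged 275 after injection and 599 in uninjected embryos (-1.08, adjusted p = 0.416).

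With the Sall4 morpholino at 20 h no transporter passed limma's test, beside 0.233% of all genes. An unadjusted p under 0.05 was found for 1, beside 8.93% of all genes. It was Slc3a1, the heavy chain for cystine and cationic amino acids (141 against 22.1, adjusted p = 0.397). With the Nanog morpholino at 20 h none passed, beside 0.62% of all genes, and 3 had an unadjusted p under 0.05, beside 7.89% of all genes. They were Slc1a1 (-0.71), Slc6a14 (0.98) and Slc7a12 (-1.07), with adjusted p of 0.293 to 0.616. Against uninjected embryos Slc7a12 was lower by 1.73 and passed (adjusted p = 0.0208). In the Sall4 comparison at 20 h the cumulus and granulosa marker Cyp11a1 was called higher (2.61, limma adjusted p = 0.00707). The sums of that marker list overlapped, at 694 to 1315 with the Sall4 morpholino and 442 to 1572 in uninjected embryos. The part of cell makeup was not tested there.

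Injection of the control morpholino changed no transporter past limma's test. Of all genes, 0.0969% were called on the 44 h arrays of the Oct4 and Sall4 experiment, 0.349% on the 44 h arrays of the Nanog experiment and 0.0905% on its 20 h arrays. The transporters with an unadjusted p under 0.05 numbered 2, 7 and 1 in the same order, beside 5.52%, 10.4% and 5.82% of all genes. Among the 44 h embryos of the Nanog experiment, 11 of the 45 transporters were above 0, with a median difference of -0.36 beside -0.09 for all genes. Slc6a11, a GABA carrier, averaged 52.9 with the control morpholino and 125 in uninjected embryos (-1.03, adjusted p = 0.0902), and Slc6a2 223 and 410 (-0.85, adjusted p = 0.106).

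Over the 11 comparisons, 14 transporters were called at least once and 31 of those tested never. Calls over time numbered 12, calls in a knockdown 8, and 6 transporters had both. On the probe sets that stand for the genes, no transporter was called in more than 1 of the Oct4, Sall4 and Nanog knockdowns at 44 h. Directions were shared more widely than calls. Slc1a5 differed by 1.33, 1.05 and 3.79 in that order, and by 2.19, 2.05 and 2.61 on its second probe set. All 3 probe sets of Slc1a1 were lower with the Oct4 and Nanog morpholinos, as given above. They were lower with the Sall4 morpholino as well, by -0.26 on the probe set used and by -0.76 and -1.27 on the others. The Oct4 and Sall4 morpholinos differed in the 3 transporters given above. The Oct4 effect at 44 h was also tested against the Nanog effect (2.13% of all genes called), the Sall4 effect against the Nanog effect (0.743%), and the Nanog effect at 44 h against that at 20 h (0.827%). No transporter passed limma's test of any of these differences, and 10, 6 and 6 had an unadjusted p under 0.05. The share of all genes with such an unadjusted p was not counted for these differences. The lowest adjusted p were 0.0771 for Slc7a6 (Oct4 minus Nanog effect, -3.02), 0.0851 for Slc43a2 (Nanog effect at 44 h minus 20 h, 3.77) and 0.118 for Slc1a5 (the same difference, 3.56). The Oct4 and Sall4 effects came from an experiment with lower array medians than the Nanog effect. The part of that scale in the contrasts between them was not tested.

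The direction over time and the direction in a knockdown were then set side by side; the time comparison and the knockdown comparisons share no arrays. Of the 12 transporters called over time, 10 had the opposite sign with the Oct4 morpholino, 9 with the Sall4 morpholino and 10 with the Nanog morpholino. Among all 3958 genes called over time the opposite sign was found in 69.9%, 72.4% and 78.4%. The exceptions were the falling Slc6a15 in all 3, Slc7a11 with the Oct4 and Sall4 morpholinos, Slc38a10 with the Sall4 morpholino and Slc6a2 with the Nanog morpholino. Across the 45 transporters Pearson's r between the difference over time and that in the knockdown was -0.53, -0.41 and -0.60, beside -0.30, -0.34 and -0.42 across all genes; these describe genes measured on the same arrays, which are not independent replicates.

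**Figure D4:**
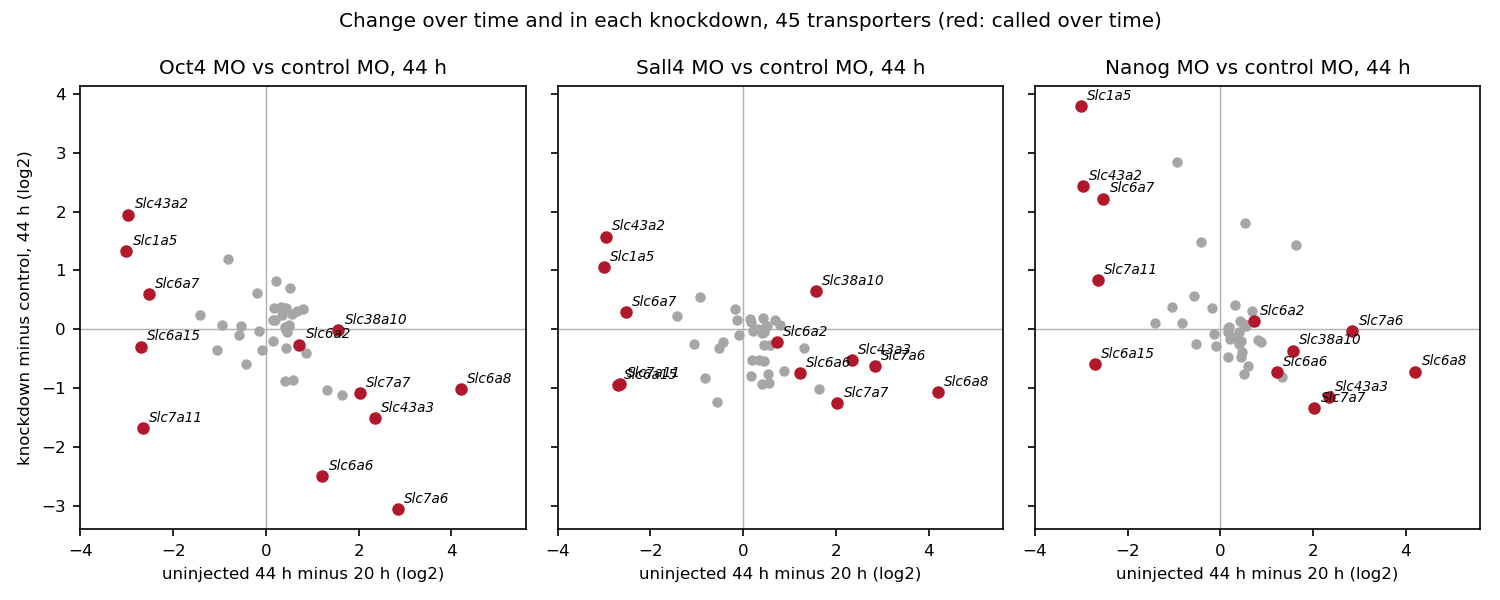
Difference between 44 h and 20 h in uninjected embryos of the Nanog experiment (horizontal, log2) against the difference between morpholino and control embryos at 44 h (vertical, log2) for the 45 tested transporters, 1 panel per knockdown; red points are the 12 called over time. Most red points lie at the upper left and lower right, 10 of 12 for Oct4, 9 for Sall4 and 10 for Nanog.

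Genes that respond to amino acid supply were read from a separate list of 21 measured genes, Atf4 and its known targets. Over time 5 rose and 3 fell, beside 9.28% and 16.3% of all genes. At 44 h 1 rose and 1 fell with the Oct4 morpholino (all genes 5.38% and 6.18%), 2 rose with the Sall4 morpholino (all genes called 3.97%) and 2 rose with the Nanog morpholino (all genes 3.44% higher). Sesn2, which senses leucine upstream of mTORC1, was higher in each knockdown, by 1.16, 1.22 and 1.47 (limma adjusted p of 0.0116, 0.0197 and 0.00404), and fell over time by 2.07 (adjusted p = 6.11e-06). Stc2, a secreted glycoprotein of the stress response, rose by 3.32 with the Nanog morpholino (adjusted p = 0.00763), and Shmt2, a mitochondrial enzyme of serine and glycine metabolism, fell by 1.99 with the Oct4 morpholino (adjusted p = 0.0372).

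Of 23 measured genes that relay amino acids to mTORC1 at the lysosome, 3 rose and 9 fell over time, beside 9.28% and 16.3% of all genes. With the Oct4 morpholino at 44 h, Lamtor1, Lamtor2 and Lamtor3, which are 3 subunits of the Ragulator scaffold, fell, among them Lamtor3 (-1.39) and Lamtor1 (-0.69), and Sesn3 rose by 1.76, beside 6.18% of all genes lower and 5.38% higher. With the Sall4 morpholino Rragc and Sesn3 rose by 1.08 and 1.21 (all genes called 3.97%), and with the Nanog morpholino Flcn rose by 2.28 (all genes 3.44% higher). Of 13 measured amino acid and peptide carriers outside the symbol rule, among them Slc6a20a and Slc6a20b, 11 were tested. None passed limma's test with the Oct4, Sall4 or Nanog morpholino at 44 h. There 1, 0 and 1 had an unadjusted p under 0.05, beside 24.1%, 16.5% and 17% of all genes. With the Oct4 morpholino at 20 h the lysosomal carrier Slc66a1 was lower than in uninjected embryos (-3.12, limma adjusted p = 0.00217), beside 1.84% of all genes lower. It also differed at 20 h by -1.90 with the Sall4 morpholino and by -2.03 with the Nanog morpholino, which did not pass (adjusted p of 0.195 and 0.145).

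Of the 58 transporters 30 had more than 1 probe set, and 87 member probe sets passed the filter when each was tested by itself. The probe sets moved the same way and each passed for Slc6a6 and Slc1a1 with the Oct4 morpholino at 44 h, for Slc1a5 with the Nanog morpholino at 44 h and for Slc6a8 over time (4.20 and 4.41). At 20 h the fall of Slc1a1 with the Oct4 morpholino passed on 1 of 3 probe sets. They were split for Slc7a6 with the Oct4 morpholino at 44 h, and for Slc43a2 with the Nanog morpholino at 44 h they shared a direction but not a call.

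**Figure D5:**
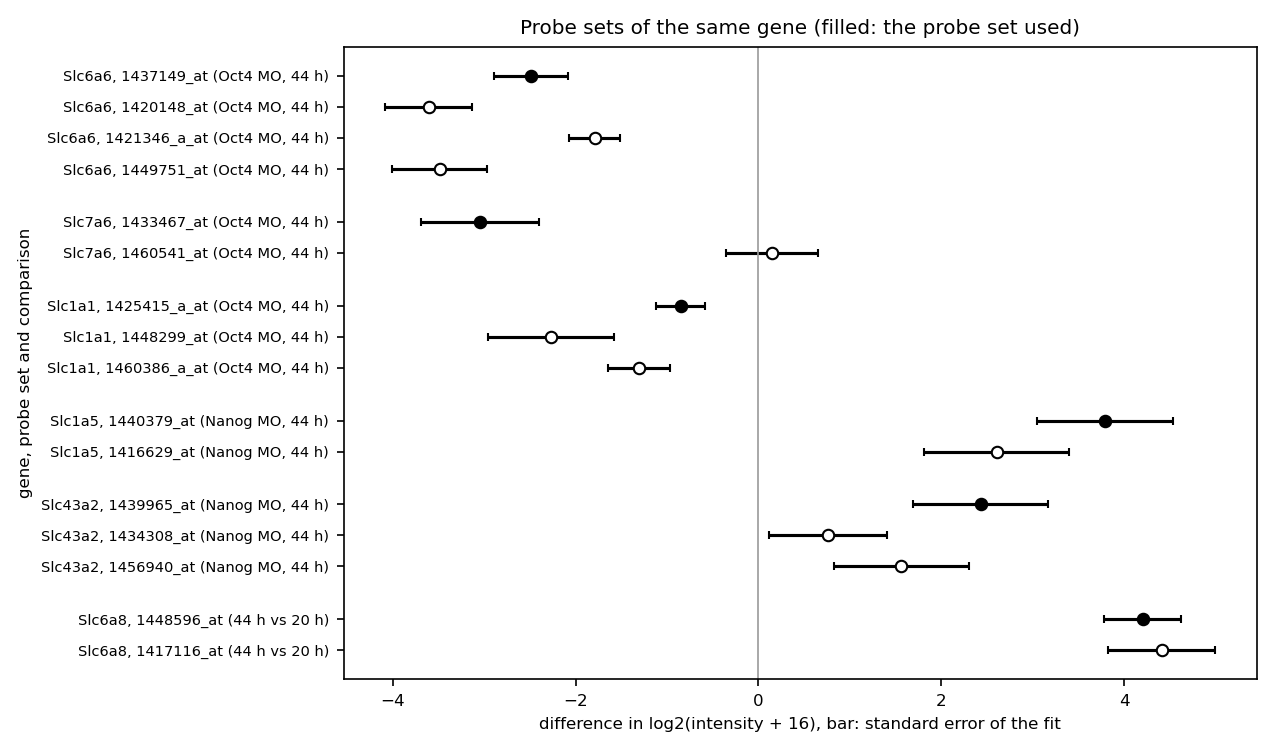
Difference in log2(intensity + 16) for each probe set of 6 transporters in the comparison named beside it, with the standard error of the fit as the bar; filled points are the probe sets that stand for the gene elsewhere. The 4 probe sets of Slc6a6 lie between -3.61 and -1.79, whereas those of Slc7a6 lie at -3.05 and 0.15.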

How the data were processed

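RNA of 42 samples was measured on Affymetrix mouse arrays. The deposited values are probe set intensities on a linear scale; how the authors background-corrected and normalized them was not given in the sources used here, and 356 values lie below 1. Per the labels' protocols, RNA was amplified with NuGEN kits, which bears on dim probe sets. Gene symbols came from the platform annotation: 34945 of 45101 probe sets had 1 symbol, and probe sets with several symbols (932) or none were left out. Groups were taken from the sample titles.

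Values were transformed as log2(intensity + 16) and fitted with limma 3.58.1 (R 4.3.3, 14 group means, 28 residual degrees of freedom, two-sided moderated tests); the fitting script was tested on simulated data. With 3 arrays a group, an exact permutation test of a single gene could not go below p = 0.1. Arrays carry no read depth; their number limits the precision. Promoter letters were searched with Python 3.11.15 and figures drawn with matplotlib 3.10.9. Other normalizations, pseudocounts, filters, probe set choices, control groups and fits without single arrays were tried. A fit of an experiment alone used only its arrays at the times compared. Same-numbered samples were checked for pairing, and their deviations correlated above 0.1 in every pair only between control-injected and uninjected embryos at 20 h in the Nanog experiment (0.11 to 0.12).

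The members and lists were chosen with earlier results of these data known. Named individually were members called in any comparison, the brightest member of each family, and 16 carriers listed by role. Each fit with single probe sets was added after seeing the data.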

Additional observations from a re-analysis of the deposited data

How the results depend on the processing

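Of the recomputed counts of transporters called, 93 equalled the main count or stayed within 1.5 times of it and 11 did not, beside fits that left out single arrays. The 93 include counts of 0 that stayed 0 in comparisons without a call, so they do not measure how stable the other counts were. With the Sall4 morpholino at 44 h, the count of 0 became 1 with a filter on the arrays' own medians and 2 with uninjected embryos as the control (Slc3a2 lower, Slc38a10 higher). With the Nanog morpholino at 44 h, the count of 3 became 5 with a pseudocount of 64, 8 with the mean of all probe sets of a gene (5 higher and 3 lower) and 1 in that experiment alone. With the Oct4 morpholino at 20 h, the count of 1 became 2 with a pseudocount of 64, 2 with a filter on the arrays' own medians, 0 with the mean of all probe sets and 0 in that experiment alone. With the Nanog morpholino at 20 h it became 1 with uninjected embryos as the control, and for control-injected against uninjected embryos at 44 h in the Nanog experiment it became 2 with a pseudocount of 64. The fits of 1 experiment alone had fewer arrays from which to estimate the spread. The cause of the changes was not tested, for those fits or for the other settings. Leaving out each array in turn, the counts ran from 2 to 6 (Oct4, 44 h), 0 to 1 (Sall4, 44 h), 1 to 4 (Nanog, 44 h), 2 to 4 (Oct4 against Sall4), 9 to 13 (time), 1 to 2 (Oct4, 20 h) and 0 to 0 in the other comparisons. With the replicate number as a block, the counts were 6, 0, 3, 3, 14 and 1 in the same order and 0 in the others; the numbers were not shown to pair samples except between control-injected and uninjected embryos at 20 h, where the block left the count at 0. Signs turned for Slc6a2 over time in control-injected embryos (-0.049), for Slc7a6 on its second probe set (0.15 for Oct4 against control and 0.58 for Oct4 against Sall4) and for Slc38a10 over time on 1 of its other probe sets (-0.58); the cause was not tested. Dim signal limits what could be tested: 13 transporters never rose above the filter.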

Other observations

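Some differences were large but did not pass, with arrays that varied widely. Slc7a2, a cationic amino acid carrier, ran from 1488 to 3089 in uninjected 44 h embryos of the Nanog experiment, from 154 to 625 in control-injected embryos and from 131 to 487 in Nanog morpholino embryos; the difference between control-injected and uninjected embryos was -2.31 (limma adjusted p = 0.383). Slc6a4, the serotonin carrier, averaged 1524 with the Nanog morpholino and 527 in controls at 44 h, with overlapping arrays (1.81, limma adjusted p = 0.104). Slc43a3 read 1317 to 2197 in control-injected and 248 to 791 in uninjected embryos at 20 h, which did not pass (1.58, limma adjusted p = 0.218).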
